A study of Homo sapiens with 16 samples.

Results

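The genes described here were 24 protein-coding genes that were well expressed in undifferentiated human embryonic stem cells and almost absent from control cells after 30 days of neural differentiation. They were selected on the control libraries alone, by their mean level on day 0 (D0) and day 30 (D30). Levels are given as CPM, the counts of a gene per 1000000 counts of its library. A member had a D0 mean of at least 10 CPM and a D30 mean of at most 1% of that level, which is a fall of at least 100-fold. Of 57736 genes in the table, 19391 were protein-coding, 10332 of these reached 10 CPM on D0, and 28 met the rule. POU5F1, NANOG, TDGF1 and PRDM14 were left out, together with 8 other core stem cell genes that did not meet it, which left 24. All 24 passed the filter on low counts through their D0 level. The levels of D0 and D30 in control cells are therefore a description of the choice and not a finding.

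All cells were of the established line H9. They were differentiated towards cortical neurons by dual SMAD inhibition, that is with LDN-193189 against BMP signalling and SB-431542 against the TGF-β receptor kinase. From the undifferentiated state onwards the cultures received either 40 µM Thiamet-G (TMG), which inhibits O-GlcNAcase and so raises protein O-GlcNAc, or its solvent DMSO as control. RNA was taken on D0, D12, D30 and D70, with 2 biological replicates for each of the 8 groups, hence 16 libraries of a single cell line.

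Human stem cells are held undifferentiated by a circuit of transcription factors around OCT4, NANOG and SOX2, which keeps a wider set of genes active. Stem cell colonies are also epithelial, with tight contacts between cells, and several stem cell genes have a separate later use in neurons, neural crest or surface epithelium. When neural fate is induced OCT4 and NANOG are lost, and stem cell genes are silenced at different speeds. SOX2 was kept in these cultures, with 122 and 157 CPM in the control libraries of D30 against 199 and 238 CPM on D0.

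Promoter sequence was examined because the members were chosen on expression alone. RefSeq promoter windows, 300 bases each from 250 before to 50 after the transcription start, were found for 16 of the 24 genes. Where a gene had several windows, only the first listed was used. Which start these cells use was not examined. The VRTN window lies within the gene span given below and not at its edge. The windows held a median of 23.5 CpG dinucleotides with a range of 4 to 36, against a median of 22 over 14998 protein-coding promoters. ZSCAN10, VRTN and TRIML2 had 4, 5 and 6 CpG, and 20.75% of all promoters had 6 or fewer. GBX2 and TERT had 36 each. The sequences of the CpG-poor promoters follow from 250 bases before the start, 5′ to 3′ on the strand of the gene, with each CpG in capitals. In GRCh37 they lie at chr16:3149296-3149545 on the minus strand, chr14:74814924-74815173 on the plus strand and chr4:189030758-189031007 on the minus strand, in that order.
ZSCAN10: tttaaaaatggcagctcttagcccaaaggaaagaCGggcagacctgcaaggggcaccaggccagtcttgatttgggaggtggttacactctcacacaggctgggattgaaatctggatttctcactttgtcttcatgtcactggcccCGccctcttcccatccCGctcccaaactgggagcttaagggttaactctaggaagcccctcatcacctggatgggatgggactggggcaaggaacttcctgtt
VRTN: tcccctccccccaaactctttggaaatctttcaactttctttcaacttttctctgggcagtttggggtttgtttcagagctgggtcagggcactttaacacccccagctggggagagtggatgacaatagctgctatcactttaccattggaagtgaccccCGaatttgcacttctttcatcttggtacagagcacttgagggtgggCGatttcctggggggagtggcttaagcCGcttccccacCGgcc
TRIML2: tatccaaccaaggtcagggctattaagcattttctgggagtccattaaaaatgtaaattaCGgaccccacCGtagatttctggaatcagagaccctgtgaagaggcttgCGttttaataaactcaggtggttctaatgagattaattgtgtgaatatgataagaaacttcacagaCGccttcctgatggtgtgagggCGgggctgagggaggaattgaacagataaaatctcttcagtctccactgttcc

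The octamer ATGCAAAT, the letters of an OCT4 site, was found on either strand in 1 of the 16 windows (HMX2), against 1.6% of all promoters, and the SOX letters CATTGT were in none, against 7.85%. The palindrome TGACGTCA, the cAMP response element, was in the windows of CHGA and FOXD3, against 2.63% of all promoters. This motif was searched after the values were seen, and CHGA and FOXD3 are the members with the highest remaining share under TMG on D30. Both promoters are CpG-rich, with 24 and 29 CpG in the window. They are shown in the same way with the motif in capitals, at chr14:93389245-93389494 and chr1:63787988-63788237 on the plus strand of GRCh37. The motif begins 54 bases before the start in CHGA and 72 bases before it in FOXD3. A match of letters is not a bound site.
CHGA: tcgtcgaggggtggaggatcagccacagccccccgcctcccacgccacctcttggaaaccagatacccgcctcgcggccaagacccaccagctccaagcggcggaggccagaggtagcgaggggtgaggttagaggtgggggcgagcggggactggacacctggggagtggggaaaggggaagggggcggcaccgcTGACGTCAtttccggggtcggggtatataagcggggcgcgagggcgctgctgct
FOXD3: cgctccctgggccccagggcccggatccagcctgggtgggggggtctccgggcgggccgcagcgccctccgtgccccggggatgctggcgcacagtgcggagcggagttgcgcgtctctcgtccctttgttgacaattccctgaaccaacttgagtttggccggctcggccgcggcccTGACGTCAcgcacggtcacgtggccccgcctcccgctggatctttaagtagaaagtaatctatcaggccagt

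The libraries held between 10334908 and 19836878 counts, so that 1 count was worth 0.0504 to 0.0968 CPM, and 3 counts 0.151 to 0.290 CPM. The undifferentiated state on D0 was checked on 8 stem cell markers, whose summed level was 4014 to 5998 CPM on D0 and 69.3 to 165.5 CPM on D30. Some later libraries stood apart from their group. The sum of 10 mesenchyme markers was 29436 CPM in D30 TMG replicate 2 against 4485 to 5826 in the other D30 libraries. It was 46857 and 52515 CPM in the D70 replicate 2 libraries of control and TMG cells, against 6784 and 3663 in replicate 1. The sum of 10 surface ectoderm and epidermis markers came to 1215 and 5736 CPM in the D70 replicate 2 libraries of control and TMG cells, against 30.4 and 111 in replicate 1. In bulk RNA, fewer cells of a type and less RNA per cell cannot be told apart.

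ZSCAN10, a zinc finger factor of the stem cell circuit, was the most abundant member with 315 and 218 CPM in the D0 control libraries. EPHA1, an ephrin receptor tyrosine kinase, had 266 and 135 CPM, and LRAT, which esterifies retinol, had 112 and 237 CPM. The lowest member was IDO1, the first enzyme of tryptophan breakdown, with 11.1 and 12.2 CPM. Control replicates on D0 were themselves spread, with a median ratio of 1.43 between the higher and the lower one, and 7 of 24 genes differed by more than 2-fold. Replicate 1 was the higher one for 19 of the 24. GBX2 had the widest gap, with 28.3 and 93.2 CPM. TMG cells on D0 had, for example, 263 and 239 CPM of ZSCAN10, and none of the 24 was called on D0 by edgeR or DESeq2, against 0% and 0.0116% of all genes. None had an unadjusted edgeR p under 0.05, against 1.26% of all genes.

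**Figure D1:**
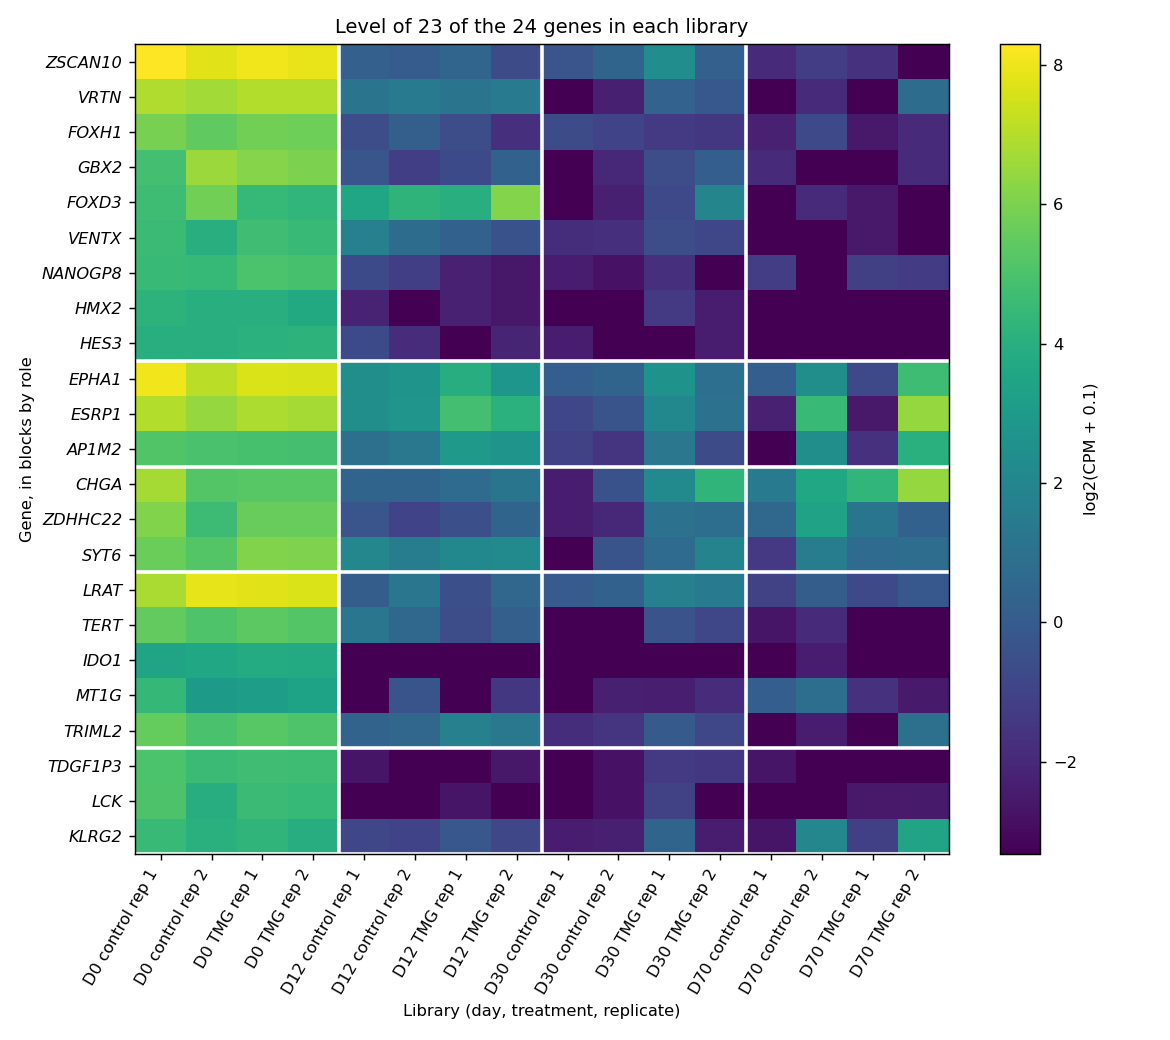
Level of 23 of the 24 genes (rows, in blocks of transcription factors, epithelial genes, neuronal and secretory genes, enzymes and others, and signalling and surface proteins) in each of the 16 libraries (columns), as log2(CPM + 0.1). D0 libraries are high throughout by choice, FOXD3 stays high on D12, and ESRP1 reaches 22.4 and 86.9 CPM in the replicate 2 libraries of D70.

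Most of the fall was complete by D12. In control cells the median member kept 2.12% of its D0 level on D12, and 7 of 24 were already at or below 1%. In TMG cells, which the rule did not use, the median was 1.92% on D12 and 9 were at or below 1%. The fall from D0 to D12 under TMG was called for 20 of 24 members by edgeR at a false discovery rate of 5%, against 9.19% of all genes tested. The members were chosen for a high D0 level, which favours a fall from D0, so nothing is read from the excess over all genes. The exceptions were ESRP1, FOXD3, AP1M2 and KLRG2.

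The fastest to vanish were LCK, TDGF1P3 and IDO1. LCK, a Src family kinase best known from T cells, went from 33.0 and 15.2 CPM on D0 to 0 counts in both control libraries of D12. TDGF1P3, a copy of the Nodal co-receptor gene TDGF1, had 0.0568 and 0 CPM there. IDO1 had 0 counts in all 4 libraries of D12 and in all 4 of D30. On D30 this allows a share of up to 0.842% of its D0 level in control and 1.00% in TMG cells, for counting error only, when 3 counts are taken as the floor over both libraries. Reads of TDGF1P3 and of NANOGP8 can be shared with TDGF1 and NANOG, of which they are near-identical copies, so both levels are uncertain. The slowest was FOXD3 (ENSG00000187140, chromosome 1, 63788238 to 63790799), a forkhead factor of stem cells that is later used in neural crest.

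FOXD3 had 26.01 and 56.2 CPM in control cells on D0 and 11.4 and 18.9 CPM on D12, a share of 36.7%. In TMG cells it had 22.2 and 20.3 CPM on D0 and 15.4 and 71.6 CPM on D12, a share of 205%. The high TMG value rested on replicate 2, and the arms overlapped on D12. A sum of 8 neural crest markers, FOXD3 among them, was 544 and 673 CPM in control and 773 and 1557 CPM in TMG cells on D12, so that it was highest in the same library. Its part in the FOXD3 level was not tested. VENTX, a homeobox factor, kept 12.3% in control cells on D12, and the synaptotagmin SYT6 kept 8.02%.

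The effect of TMG on D12 was measured in libraries that the rule did not use. No member was called by edgeR or by DESeq2 at a false discovery rate of 5%, against 0% and 0.0255% of all genes. At an unadjusted p under 0.05 no member was higher, against 1.54% of all genes, and 3 were lower, namely TERT, NANOGP8 and VENTX, against 0.936% of all genes. Both TMG libraries lay above both controls for 7 of 24 genes (14.7% of all genes) and below for 5 (18.7% of all genes). The 7 included all 3 epithelial genes, and the 5 held 4 of the 9 transcription factors together with TERT. The 5 are 20.8% of the members, close to the share over all genes, and no pattern by role is read from these counts. HES3 and NANOGP8, among the 5, rested on 12 and 15 pooled counts in control and 2 and 3 in TMG cells.

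ESRP1, the splicing regulator of epithelial cells, had 5.28 and 6.52 CPM in control and 28.7 and 16.9 CPM in TMG cells on D12. AP1M2, an epithelial subunit of the clathrin adaptor, had 1.87 and 2.39 CPM against 7.59 and 6.36 CPM. The arms did not overlap for either gene, with log2 fold changes of 1.98 (SE 1.73) and 1.75 (SE 1.51), and each had an adjusted p of 1 by edgeR. Surface ectoderm markers summed to 175 and 223 CPM in control and 426 and 512 CPM in TMG cells in the same libraries, and their part in these levels was not tested. TERT, the catalytic subunit of telomerase, had 2.27 and 1.40 CPM in control and 0.562 and 1.06 CPM in TMG cells, a log2 fold change of -1.12 (SE 0.40, unadjusted p = 0.0205 and adjusted p = 1 by edgeR).

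On D30 most members lay above the control level in TMG cells. The median member kept 1.44% of its D0 level under TMG, and 6 of 24 were at or below 1%, while in control cells the median was 0.359% and all 24 were at or below 1% by choice. The replicates gave medians of 2.01% and 1.202%. Both TMG libraries lay above both controls for 16 of 24 members, against 21.8% of all genes, and below both for FOXH1 alone, against 22.3% of all genes. Since control libraries of D30 were selected for being low, these counts are a description, and so are the tests of TMG against the same controls that follow. Leaving out D30 TMG replicate 2, the library rich in mesenchyme markers, gave 20 of 24 above both controls (36.8% of all genes), and leaving out TMG replicate 1 gave 17 (36.2%).

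The fitted median log2 fold change on D30 was 2.34, against 0.01 over all genes. HMX2 and TERT had 0 counts in both controls, and with these set to the bound that 3 counts allow the median was 2.32. edgeR called none of the 24 at a false discovery rate of 5%, as it called 0% of all genes, and 13 were higher at an unadjusted p under 0.05 (7.1% of all genes). DESeq2 called 5 higher, among them CHGA, ZDHHC22, FOXD3 and TERT (0.874% of all genes). The choice of members with low D30 controls favours both counts, so nothing is read from their excess over all genes.

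A crossed choice gave a version in which the control library compared was not the one selected. Applied to control replicate 1 alone, the rule took 32 genes, 23 of them members. Both TMG libraries lay above control replicate 2 for 21 of these (65.6%), against 30.4% of all genes, and below it for 2, against 35.8%. Applied to control replicate 2, it took 24 genes, 20 of them members. Both TMG libraries lay above control replicate 1 for 16 (66.7%), against 36.9% of all genes, and below it for 3, against 34.9%. The median log2 fold changes were 1.85 and 2.00, and edgeR called 0 genes in either set, with 9 and 7 higher (3.28% and 5.1% of all genes in these fits) and 0 lower at an unadjusted p under 0.05. The control arm of D30 was a single library here, which is assumed to vary like the other groups. These sets share members and both TMG libraries, so they are not separate evidence. The low control levels of their genes leave little room for a fall. Nothing is therefore read from the excess over all genes, nor from the 0 lower.

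**Figure D2:**
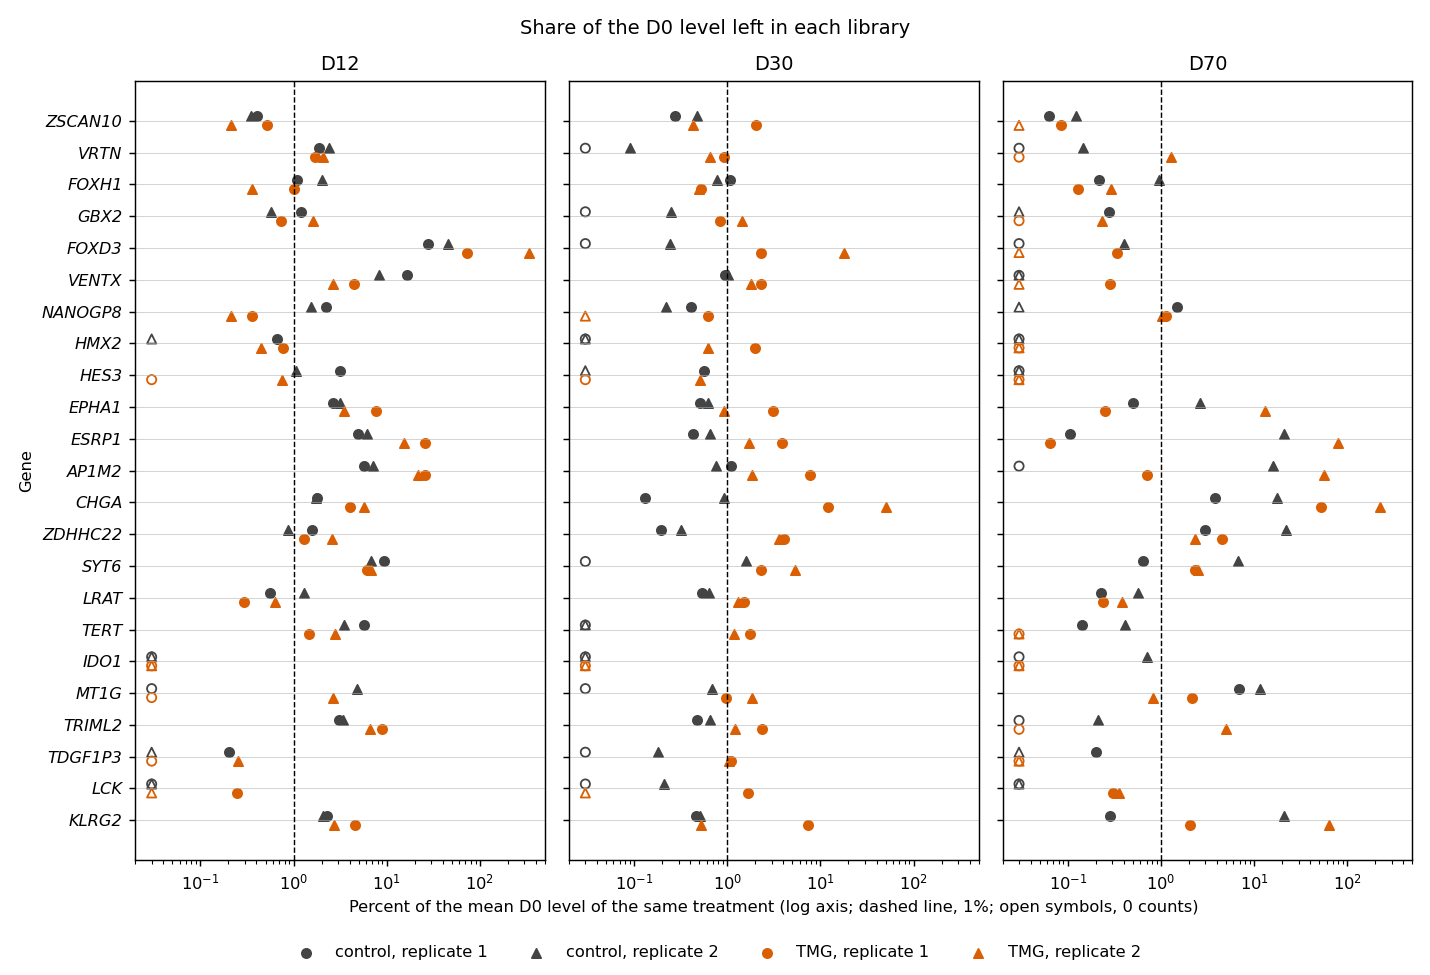
Percent of the mean D0 level of the same treatment left in each library (log axis) for 23 of the 24 genes on D12, D30 and D70. Grey symbols are control and orange symbols TMG cells, circles are replicate 1 and triangles replicate 2, open symbols mark 0 counts and the dashed line 1%. On D30 the TMG symbols of the 3 neuronal and secretory genes lie to the right of every control symbol of the same gene.

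The 3 neuronal and secretory genes kept the highest median share of the role groups on D30 under TMG, at 3.82% with a range of 3.80% to 31.2%, against at most 0.803% in control cells, each share being the mean of both libraries. CHGA (ENSG00000100604, chromosome 14, 93389495 to 93401630) encodes chromogranin A of dense-core vesicles. It had 0.0922 and 0.655 CPM in control and 4.64 and 19.5 CPM in TMG cells on D30. The pooled counts were 14 and 264, a ratio of 27.0 with an exact 95% interval of 15.8 to 50.2 that covers counting error only. It was the single gene of this group whose fall from D0 to D30 under TMG was not called (log2 fold change -1.56, SE 0.88, adjusted p = 0.21 by edgeR).

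ZDHHC22, a palmitoyl transferase, had 0.0922 and 0.151 CPM in control and 1.94 and 1.72 CPM in TMG cells on D30. SYT6 had 0 and 0.706 CPM against 1.55 and 3.62 CPM. The TMG libraries were thus above both controls for each gene of this group, and the TMG replicates were close to each other for ZDHHC22. A sum of 10 pan-neuronal markers was 567 and 700 CPM in control and 851 and 1080 CPM in TMG cells, again without overlap, and its part in these levels was not tested.

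The 3 epithelial genes were also above both controls in both TMG libraries on D30. EPHA1 had 1.01 and 1.26 CPM in control and 6.10 and 1.81 CPM in TMG cells. ESRP1 had 0.461 and 0.706 CPM against 4.26 and 1.90 CPM, and AP1M2 had 0.369 and 0.252 CPM against 2.32 and 0.543 CPM. TMG replicate 1 was the higher one for each, and over all members it was the higher one for 17 of 24, against 54.7% of all genes tested. Surface ectoderm markers summed to 46.2 and 40.1 CPM in control and 88.2 and 55.2 CPM in TMG cells, and their part was not tested. The wider list of 43 epithelial genes, 2 of these 3 among them, had a median log2 fold change of -0.03 for TMG against control on D30, with 0 higher and 1 lower at an unadjusted p under 0.05 by edgeR.

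Transcription factors differed among themselves on D30. VRTN, a stem cell gene also known for its role in vertebral number (ENSG00000133980, chromosome 14, 74769772 to 74826711), had 0 and 0.101 CPM in control and 1.16 and 0.814 CPM in TMG cells. Its pooled counts were 2 and 21, a ratio of 15.1 (exact 95% interval 3.68 to 133). FOXD3 had 0 and 0.101 CPM against 0.484 and 3.80 CPM, or 2 against 47 counts, with replicate 2 again the higher. The neural crest sum, FOXD3 included, was 125 and 138 CPM in control and 238 and 362 CPM in TMG cells on D30, highest in the same library, and its part was not tested. GBX2, a homeobox factor of stem cells and hindbrain, had 0 and 0.151 CPM against 0.581 and 0.995 CPM. VENTX and HMX2 were above both controls as well, with at most 0.581 CPM in any TMG library.

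FOXH1, the forkhead partner of SMAD proteins in Nodal signalling, went the other way with 0.553 and 0.403 CPM in control and 0.290 and 0.271 CPM in TMG cells. Its pooled counts were 14 and 6, with a ratio of 0.615 and an exact 95% interval of 0.194 to 1.70, which takes in no difference. ZSCAN10 had 0.738 and 1.26 CPM in control and 5.13 and 1.09 CPM in TMG cells, so the arms overlapped. HES3, a basic helix-loop-helix repressor, had 1 count in each arm, and NANOGP8 had 2 in each, which cannot show a difference at this depth.

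Among the enzymes and others, LRAT had 0.922 and 1.11 CPM in control and 3.19 and 2.71 CPM in TMG cells on D30. TERT had 0 counts in both controls and 0.677 and 0.452 CPM in TMG cells, so it was at least 5.78-fold higher when the controls are set to 3 counts over the group. TRIML2, a tripartite motif family member, had 0.184 and 0.252 CPM against 0.871 and 0.452 CPM. MT1G, a metallothionein, overlapped between arms. IDO1 had 0 counts in both arms, and of the signalling and surface genes only TDGF1P3 was above both controls, with 0.290 and 0.271 CPM against 0 and 0.0504 CPM.

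Of the 4 core genes that met the rule and were left out, 3 had both TMG libraries above both controls on D30, and their controls are low by the same choice. POU5F1 had 0.0922 and 0.403 CPM in control and 9.10 and 5.25 CPM in TMG cells. NANOG had 0.184 and 0.151 CPM against 1.06 and 1.18 CPM, and TDGF1 had 0.0922 and 0.252 CPM against 4.74 and 1.18 CPM. PRDM14 had 0 counts in the controls and in TMG replicate 2, and 0.677 CPM in TMG replicate 1. Of the 8 core genes that did not meet the rule, DNMT3B and NODAL were above both controls, 5 overlapped between the arms and GDF3 had 0 counts in these libraries. LIN28B, for example, had 80.1 and 56.9 CPM in control and 64.4 and 21.3 CPM in TMG cells. The sum of the 8 stem cell markers, which is led by PODXL, overlapped between the arms, with 123 and 73.4 CPM in control and 165.5 and 69.3 CPM in TMG cells.

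The level in TMG cells on D30 was nonetheless far below that of D0. The fall from D0 to D30 under TMG was called for 20 of 24 members by edgeR, against 14.4% of all genes, and the members' median was -5.96 on the log2 scale. As on D12, the choice favours this count and nothing is read from the excess. Those not called were ESRP1, CHGA, AP1M2 and KLRG2. From D12 to D30 under TMG edgeR called no member lower, against 0.124% of all genes. FOXD3 alone was lower at an unadjusted p under 0.05, with a log2 fold change of -4.18 (SE 1.01, adjusted p = 0.0948 by edgeR), against 7.15% of all genes. In the same interval 4 members were higher at an unadjusted p under 0.05, namely ZSCAN10, LRAT, CHGA and TDGF1P3, against 7.86% of all genes. DESeq2 called FOXD3 lower and CHGA higher, and 2.64% of all genes in either direction.

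Had the rule been applied to TMG cells, 7 genes would have met it. Of these 6 were members, which is 25% of the members and 85.7% of the TMG list: VRTN, FOXH1, HES3, LCK, NANOGP8 and IDO1. APELA, a secreted peptide of stem cells, met the rule in TMG cells only, and in control cells it lay just outside at 1.10%. TNFRSF8 and FGF19 were the other nearest genes outside, at 1.09% and 1.10%, while FOXH1, AP1M2 and VENTX lay just inside at 0.918%, 0.935% and 0.978%. Leaving out D30 TMG replicate 1 raised the TMG list from 7 genes to 19, of which 10 were members.

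On D70 the arms overlapped for most members. The median share was 0.374% in control and 0.489% in TMG cells, with 15 and 13 of 24 at or below 1%. Both TMG libraries lay above both controls for CHGA and LCK, which is 2 of 24 against 6.48% of all genes, and below for TERT and MT1G, against 16.1%. Both shares over all genes were also lower than on D30, where the choice favoured a separation, so no change of the members from D30 is read from these counts. Both LCK and TERT rest on 3 counts or fewer in either arm. No member was called by edgeR, which called 0% of all genes. DESeq2 also called no member, and over all 43143 genes it called 26 higher and 27 lower. Without D70 TMG replicate 1, where the remaining library is assumed to vary like the other groups, edgeR called 4, namely CHGA, VRTN, EPHA1 and TRIML2, all higher, against 3.07% of all genes. The remaining TMG library is the one rich in mesenchyme and surface ectoderm markers. With both libraries, at an unadjusted p under 0.05, CHGA, VRTN and TRIML2 were higher (2.61% of all genes) and MT1G was lower (2.88%).

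The median log2 fold change on D70 was 0.11, and it was -1.51 without TMG replicate 2. With 5 members at 0 counts in 1 arm set to their bound, and 2 at 0 in both arms left out, it was 0.039. Within replicate 1 the TMG library was the higher one for 12 members and the lower one for 7, while 50.1% of all genes were higher. Within replicate 2 it was the higher one for 10 and the lower one for 10, while 32.7% of all genes were higher.

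CHGA had a mean of 138% of its D0 level under TMG on D70, with 20.1 and 87.3 CPM against 38.6 and 39.0 CPM on D0, so that the D70 values lay on both sides of the D0 values. In control cells it had 2.70 and 12.4 CPM on D70. Replicate 2 was the higher one in both arms, and within each replicate number the TMG library was the higher one. The log2 fold change of TMG against control was 3.01 (SE 0.93), with an unadjusted p of 0.00797 and an adjusted p of 0.868 by edgeR. It was 1.57 without TMG replicate 2, 3.72 without TMG replicate 1, 2.33 without control replicate 1 and 4.33 without control replicate 2. Within TMG cells the change from D30 to D70 was 2.29 (SE 0.90, adjusted p = 0.414 by edgeR). Its highest library, D70 TMG replicate 2, is also the one with the highest surface ectoderm and mesenchyme sums of all 16 (5736 and 52515 CPM) and the lowest pan-neuronal sum (215 CPM), and their part in the CHGA level was not tested.

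ZDHHC22 had 1.41 and 10.3 CPM in control and 2.20 and 1.13 CPM in TMG cells on D70. It was the only member called higher from D12 to D70 in control cells, with a log2 fold change of 3.49 (SE 0.81, adjusted p = 0.0232 by edgeR). Pan-neuronal markers summed to 1098 and 649 CPM in control and 1210 and 215 CPM in TMG cells on D70, and 10 retinal pigment epithelium markers to 448 and 2553 CPM in control and 455 and 147 CPM in TMG cells. ZDHHC22 and the pigment epithelium sum were thus both highest in control replicate 2 and lowest in TMG replicate 2. So were the sums of 2 other lists on D70. Blood and endothelium markers had 26.1 and 79.9 CPM in control and 42.6 and 18.9 CPM in TMG cells. Endoderm markers had 14.9 and 42 CPM in control and 8.51 and 4.35 CPM in TMG cells. The part of any of these marker lists in the ZDHHC22 level was not tested.

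In that same control interval VRTN, FOXD3, TERT and VENTX were called lower, so that 5 of 24 were called, against 11.1% of all genes. With only the 4 libraries of the groups compared edgeR called none of them, and 0.0368% of all genes. Without D70 control replicate 2 it called 3, namely VENTX, TERT and FOXD3, against 8.78% of all genes. It also called 3 without either D12 control library, against 1.33% and 2.3% of all genes. VENTX had 3.24 and 1.63 CPM on D12 and 0 counts on D70. FOXD3 went from 11.4 and 18.9 CPM to 0 and 0.164 CPM. Both were thus lower in each control library of D70 than in either of D12.

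ESRP1, EPHA1, AP1M2 and KLRG2 were high on D70 in replicate 2 of both arms. ESRP1 (ENSG00000104413, chromosome 8, 95653302 to 95719694) had 0.113 and 22.4 CPM in control and 0.0709 and 86.9 CPM in TMG cells. AP1M2 had 0 and 5.32 CPM against 0.213 and 16.8 CPM, and EPHA1 had 1.01 and 5.32 CPM against 0.496 and 25.5 CPM. KLRG2, a lectin-like surface protein, had 0.0563 and 4.09 CPM against 0.355 and 11.03 CPM. For each of the 4 genes the order of the libraries was TMG replicate 2 first and control replicate 2 second. The sums of surface ectoderm and of mesenchyme markers given above have these same leading libraries, and so has the sum of 9 mesoderm and muscle markers, at 5.46 and 46.6 CPM in control and 19.5 and 95.4 CPM in TMG cells. KRT5, a surface ectoderm marker, had 385 and 1895 CPM in replicate 2 of control and TMG cells and 1.30 and 2.13 CPM in replicate 1. The part of these 3 marker lists in the level of the 4 genes was not tested.

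Without D70 TMG replicate 2 the log2 fold change of TMG against control turned from 2.18 to -6.97 for ESRP1, from 2.23 to -2.48 for EPHA1 and from 1.91 to -3.38 for AP1M2. Over all members, 10 of 24 were higher in replicate 2 in both arms, against 38.2% of all genes tested.

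**Figure D3:**
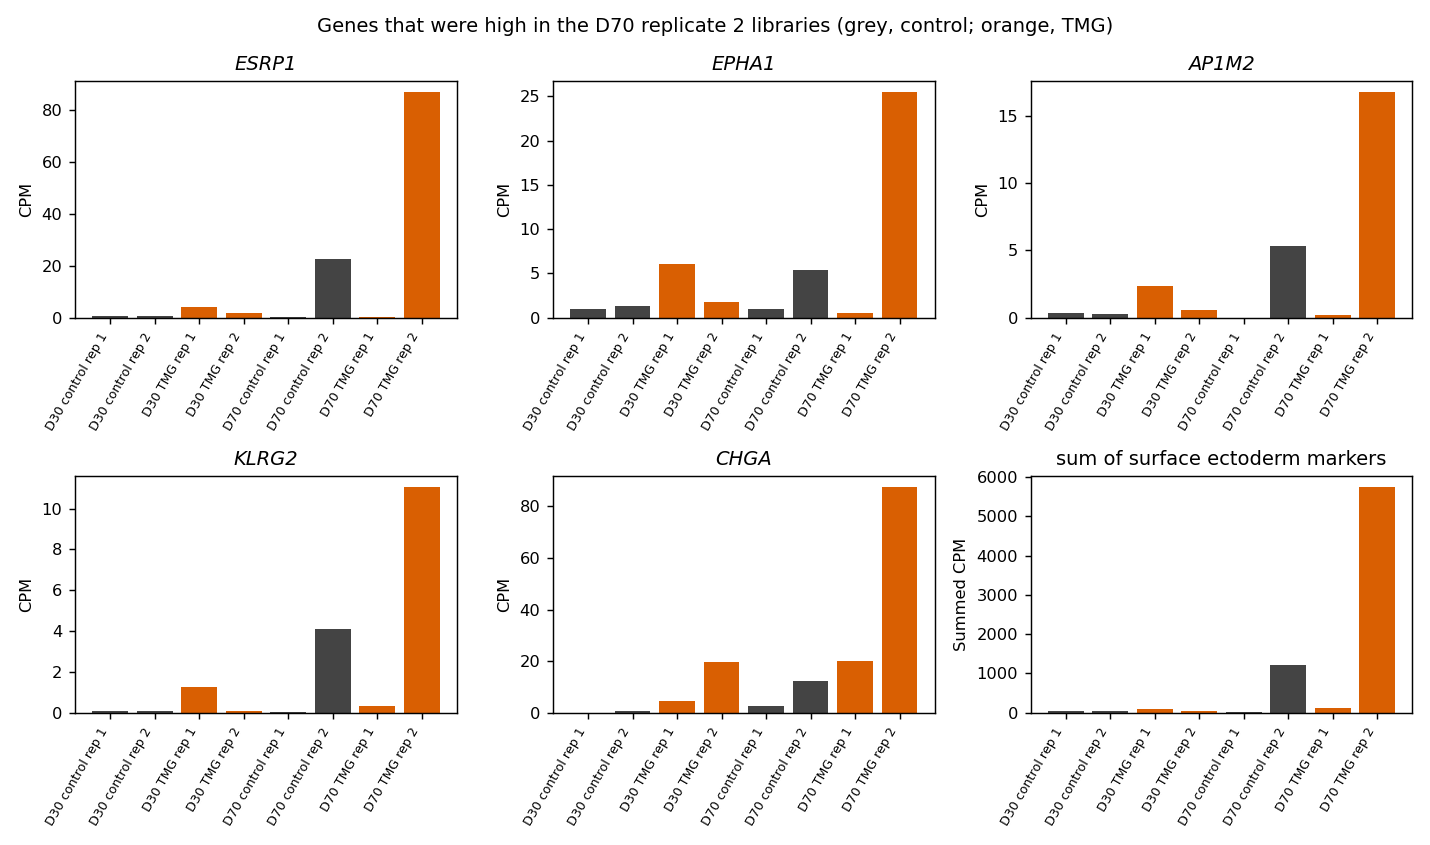
Level in CPM of ESRP1, EPHA1, AP1M2, KLRG2 and CHGA, and the summed CPM of 10 surface ectoderm markers, in each D30 and D70 library (grey bars control, orange bars TMG). In each of the 6 panels the D70 TMG replicate 2 library is the highest bar.

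The remaining members were low in both arms on D70. From D30 to D70 under TMG edgeR called none of the 24 (0.00825% of all genes), with 8 lower (4.51% of all genes) and 1 higher (6.45%) at an unadjusted p under 0.05, and DESeq2 called 3 lower (0.178%). Without D70 TMG replicate 1, which leaves the marker-rich replicate 2 alone in its group, edgeR called 4, with ZSCAN10, VENTX and TERT lower and EPHA1 higher, against 6.29% of all genes. The 8 were ZSCAN10, LRAT, GBX2, FOXD3, TERT, TDGF1P3, VENTX and HMX2, and the higher one was CHGA. TERT, TDGF1P3, VENTX and HMX2 had only 12, 6, 11 and 4 pooled counts in TMG cells on D30, so their falls rest on few counts. ZSCAN10 went from 5.13 and 1.09 CPM to 0.213 and 0 CPM, a log2 fold change of -4.54 (SE 0.92, adjusted p = 0.244 by edgeR). LRAT went from 3.19 and 2.71 CPM to 0.496 and 0.805 CPM. TERT had 0 counts in both TMG libraries of D70, and VRTN and TRIML2 were present only in replicate 2, at 1.61 and 1.85 CPM. MT1G had 1.01 and 1.72 CPM in control and 0.213 and 0.0805 CPM in TMG cells on D70, with a log2 fold change of -3.01 (SE 1.30, adjusted p = 0.894 by edgeR).

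Wider lists of stem cell genes were followed in the same fits. Of 43 transcription and chromatin factors tested, 5 of them members, edgeR called 30 lower and 0 higher from D0 to D30 under TMG, against 14.4% and 13.4% of all genes. Many genes of these lists were high on D0, which favours a fall, but not all were. DPPA5, for example, had 0.0649 and 0.128 CPM in the D0 control libraries. For TMG against control on D30 edgeR called 0 of the 43 factors, and their median log2 fold change was 0.12. At an unadjusted p under 0.05 by edgeR, 10 were higher and 3 lower (7.1% and 4.89% of all genes). ZSCAN10, VRTN, FOXD3 and TERT were among the 10, and their D30 controls were chosen for being low. The choice thus favours this count, and nothing is read from its excess over all genes. Of 43 epithelial adhesion and splicing genes, 2 of them members, 12 were called lower from D0 to D30 under TMG (14.4% of all genes). From D30 to D70 under TMG edgeR called 0 of these, and 25 were higher at an unadjusted p under 0.05 (6.45% of all genes) with a median of 2.24. This rested on D70 TMG replicate 2, the library with 5736 CPM of surface ectoderm markers, which was the higher one for 40 of the 43. Without that library the median was 0.10, and without D70 TMG replicate 1 it was 2.98. This split was chosen after seeing the data. The median log2 fold change of the epithelial list for TMG against control was 0.92 on D12 and -0.03 on D30, with 0 called on either day.

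Of 34 genes of the Nodal, BMP and FGF pathways, none of them a member, 8 were called lower and 8 higher from D0 to D30 under TMG, beside 14.4% and 13.4% of all genes. Of 30 secreted factors and surface proteins, 21 were called lower, and of 29 metabolism and transport genes, 13 were called lower, with 0 called higher in both lists, beside the same shares. The medians of TMG against control on D30 were 0.36, -0.04 and 0.00 for these lists, beside 0.01 for all genes, and edgeR called 0 genes in each. The members' median of 2.34 is not comparable with these. The members were chosen for a low control level on D30, and the lists, apart from the members in them, were not.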

How the data were processed

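rRNA-depleted RNA of H9 cells was sequenced. The authors aligned the reads to hg19 with Bowtie2 and deposited RSEM 1.2.12 estimated counts per gene (Ensembl GRCh37.p13), here whole numbers, which a count model accepts. Gene types came from GENCODE for GRCh37 (55501 of 57736 IDs matched). Groups followed the sample titles, since the treatment tag went against the title in 8 of 16 libraries. CPM is count divided by library total. Tests were edgeR 4.0.16 quasi-likelihood F-tests (TMM, expression filter, 24249 genes, Benjamini-Hochberg adjustment) with 1 mean for each of 8 groups, and DESeq2 1.42.0 was an alternative. The procedure was tested on simulated data. The members and lists were chosen with earlier results of these data known, and 1 member is counted but not reported here. Genes were named by level, share of D0 and lowest p, or by nearness to the 1% limit. RefSeq promoters (GRCh38.p14 table) were placed in GRCh37 by exact match. Alternatives were other normalization, filter, tool, block, libraries and rule limits.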

Additional observations from a re-analysis of the deposited data

Results flagged for a closer look

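For 7 members the TMG libraries lay on opposite sides of both controls on 2 days, which is 29.2% of the members against 15.1% of all genes tested. Each value is the TMG minus control difference of mean log2(CPM + 0.5) on the later day minus that on the earlier day. The differences between days were not tested, and D0 and D30 control levels were chosen by the rule. From D0 to D30 the value was 2.74 for FOXD3, 1.24 for AP1M2 and 0.67 for HMX2, each below the controls first and above them later. AP1M2 had 1.66 from D0 to D12, while NANOGP8 and HES3 had -1.11 and -0.67 over the same days. From D12 to D30 it was 1.92 for TERT and 1.59 for VENTX. TERT then had -1.36 from D30 to D70.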

How the results depend on the processing

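The direction of the D30 median held in the alternatives run. Members called on D30 were 0 by edgeR, 5 by DESeq2, and 1 each with no filter on low counts and with a replicate block, which called CHGA (0%, 1.38%, 0.0487% and 0.961% of all genes, in that order). The number higher at an unadjusted p under 0.05 on D30 was 13 (7.1% of all genes), then 7 with only the libraries compared (7.91%) and 6 to 10 with 1 library left out (2.15% to 9.15%). The D30 median was 1.85 and 2.00 under the crossed rule and 1.46 to 3.05 with 1 library left out.

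The D12 median of 0.47 was 0.4815 with DESeq2, 0.4777 with RLE normalization, 0.4653 without the filter, 0.63 with only the libraries compared, 0.4631 with the replicate block and 0.0935 to 0.595 with 1 library left out. The number higher at an unadjusted p under 0.05 on D12 was 0 (1.54% of all genes), 1 with DESeq2 (1.08%), 3 with only the libraries compared (3.72%), 5 with the replicate block (3.88%) and 0 to 2 with 1 library left out (0.713% to 1.54%).

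Members called on D70 were 0 to 4 with 1 library left out, the 4 without TMG replicate 1. The number higher at an unadjusted p under 0.05 was 0 with only the libraries compared (0.449% of all genes), 6 with the replicate block (5.03%) and 0 to 8 with 1 library left out (2.75% to 7.47%). The D70 median was 0.95 with only the libraries compared, -1.51 to 1.17 with 1 library left out and -0.47 with a rule limit of 0.5%. ESRP1, EPHA1 and AP1M2 turned to -6.97, -2.48 and -3.38 without D70 TMG replicate 2, and had 8.54, 3.70 and 10.23 without D70 control replicate 2. The cause was not tested.

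Members lower from D12 to D30 under TMG were 1 with DESeq2 (0.925% of all genes) and 1 with the replicate block (0.165%). Calls from D30 to D70 under TMG were 3 with DESeq2 (0.851%), 1 without the filter (0.0487%) and 0 to 4 with 1 library left out (0.00769% to 6.29%), the 4 without D70 TMG replicate 1. Calls from D12 to D70 in control were 9 with DESeq2 (10.5%), 0 with only the libraries compared (0.0368%) and 3 to 4 with 1 library left out (1.33% to 8.78%). The rule took 14 genes at 0.5%, 48 at 2%, 37 over all gene types and 22 to 31 with 1 library left out. On TMG cells it took 4 genes at 0.5%, 20 at 2% and 7 to 19 with 1 library left out. The falls from D0 under TMG stayed within 1.5 times in all settings.

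Replicate numbers were not taken to pair the libraries, since the labels do not say what a number marks and the differences between replicates correlated between arms by 0.0453 on D0. They correlated by 0.367, 0.223 and 0.607 on D12, D30 and D70, so libraries of the same number did deviate together at the later stages, and the replicate block called CHGA on D30 (adjusted p = 0.0296 by edgeR). With 2 replicates, and with most later values on few counts, small differences were not detectable at this depth.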
